A study of Mus musculus with 2 samples.

Results

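Collagen genes encode the chains of the triple-helical proteins of the extracellular matrix. The members were all genes in the deposited feature list whose symbol is Col, a number, the letter a and a number, which gave 44 of 32285 genes. The choice used names alone and no measured value. Fibrillar chains (types I, III and V among them) build the tension-bearing fibres, type IV chains the sheet of the basement membrane, and type VI chains the beaded filaments that lie close to cells. FACIT chains sit on the surface of fibrils, and multiplexin chains link basement membranes to the matrix beneath. In most solid tumours fibroblasts are the textbook source of fibrillar collagen, pericytes and endothelial cells contribute type IV, and leukocytes make little.

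The study compared subcutaneous mouse tumours labelled 4T1, a mammary carcinoma line, after phototherapy mediated by AIE COF or after PBS. AIE stands for aggregation-induced emission and COF for covalent organic framework, a porous light-responsive material. The treated group is 1 library and the PBS group is 1 library, with tumours taken on day 7 after phototherapy in both. The labels call the host strain C57BL/c and do not give the number of animals behind a library, whether the PBS group was irradiated, or the age of the mice. With 1 library per group no test of the treatment was possible, and every interval below covers counting error only. Differences between the libraries therefore cannot be told apart from differences between animals or between preparations.

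The analysis kept 8619 cells of the treated and 7864 of the PBS library, holding 102637397 and 126754919 UMIs (unique molecular identifiers, each standing for 1 captured transcript). Median depth was 3884 UMIs per cell in the treated library and 6341 in the PBS library, and 39 cell barcodes occurred in both. Levels are given as CPM, the UMIs of a gene per 1000000 UMIs of the same cells. The kit counts transcript ends, so levels were not divided by gene length, and an order of levels between genes also carries how well each 3′ end is captured. Cells were clustered without any collagen gene, so that collagens did not set the cell classes. Named immune cells made up 54.1% of treated and 30.5% of PBS cells, tumour-like cells 29.2% and 37.7%, and fibroblast-like cells 0.394% and 0.343% (34 and 27 cells). The naming rule left 2 large clusters without a name. Cluster 6 (4.95% of treated and 14.3% of PBS cells) met 5 of 6 tumour-like markers. Cluster 7 (5.63% and 9.54%) met 10 of 10 macrophage markers. Neither is counted in the named classes.

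Clusters were named from marker lists, so the tumour-like, fibroblast and pericyte marker levels below describe the classes and are no independent check. The tumour-like list held genes already reported high in such cells of these data. The 12 epithelial markers were not used for naming. Tumour-like cells carried 1291 CPM of the 6 tumour-like markers in the treated library and 1257 CPM in the PBS library. Hmga2, a chromatin protein of embryonic and tumour cells, stood at 382 and 350 CPM. The 12 epithelial markers summed to 3.55 and 3.49 CPM in the same cells, and Krt18, a keratin of simple epithelia, to 0 and 0.0194 CPM. The epithelial markers that define a mammary carcinoma were thus at or near 0 in cells labelled 4T1. The tumour-like cells also carried mesenchymal genes: the receptor gene Pdgfra stood at 64.0 and 61.6 CPM and the proteoglycan gene Dcn at 1495 and 1768 CPM. Other markers of the fibroblast list differed between the classes. Fbln2 stood at 0.102 and 0.156 CPM in tumour-like cells against 464 and 255 CPM in fibroblast-like cells, and Serping1 at 0.242 and 0.243 against 863 and 582 CPM. The fibroblast-like cluster met 16 of 16 fibroblast and 9 of 10 pericyte markers and was led by Saa3, Acta2 and Rgs5, so it held pericyte-like cells as well.

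Collagens took 260773 of the treated and 361604 of the PBS UMIs, which is 2541 CPM (95% exact Poisson interval 2531 to 2550) and 2853 CPM (2843 to 2862). Tumour-like cells held 88.9% of the collagen UMIs in the treated library and 90.9% in the PBS library. Fibroblast-like cells held 5.33% and 1.48%, although they were under 0.5% of the cells. All 4665 treated and 2400 PBS named immune cells together held 1.27% and 0.683%. Per UMI of the class, fibroblast-like cells were the richest, with 45423 CPM of collagen in the treated and 25772 CPM in the PBS library. Tumour-like cells stood at 2957 and 3195 CPM, slightly below low-UMI tumour-like cells (3210 and 3639 CPM) and the few endothelial-like cells (24 and 18 cells, 3158 and 3738 CPM). Named immune cells lay lowest at 183 and 204 CPM. On the log2 scale fibroblast-like cells stood 3.94 above tumour-like cells in the treated library and 3.01 above them in the PBS library, and immune cells stood 4.01 and 3.97 below them (values of -4.01 and -3.97).

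**Figure D1:**
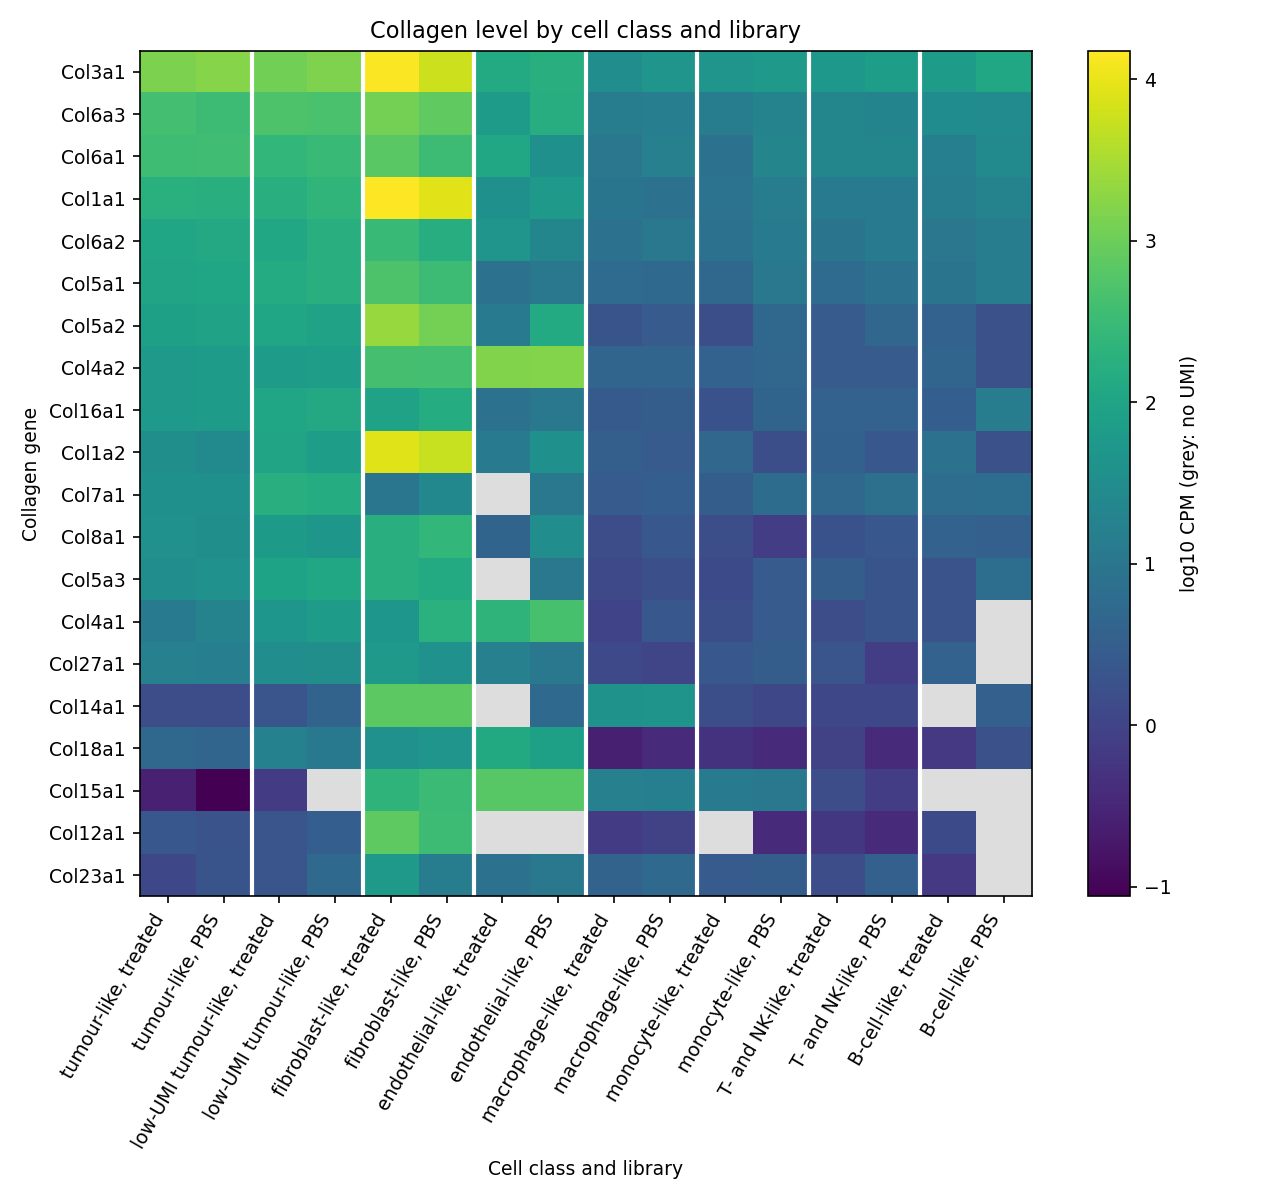
Level of 20 collagen genes (rows, the 18 with most UMIs plus Col12a1 and Col23a1) in 8 cell classes (columns, treated and PBS side by side), as log10 CPM; grey marks no UMI. Fibroblast-like columns are brightest for Col1a1, Col1a2 and Col3a1, endothelial-like columns for Col4a2 and Col15a1, and macrophage-like columns stand out from the other immune columns for Col14a1.

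Of the 44 members, 33 reached 50 UMIs over both libraries, the minimum set for reading a ratio. Col10a1, the chain of hypertrophic cartilage, had 0 UMIs in both libraries, which allows up to 3 UMIs in each, and it lies inside Nt5dc1 on the other strand. Col9a2 had 0 treated and 3 PBS UMIs and Col2a1, the main chain of cartilage fibrils, 2 and 2. The other 8 members below the minimum (Col4a3, Col4a5, Col6a5, Col6a6, Col11a1, Col11a2, Col17a1 and Col22a1) had between 8 and 27 UMIs in a library.

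The make-up of the collagen UMIs differed between cell classes more than between libraries. In tumour-like cells fibrillar chains made up 63.3% of the treated and 65.9% of the PBS collagen UMIs, and beaded-filament chains 29.3% and 26.3%. In fibroblast-like cells the fibrillar share was 89.4% and 85.3%, with 4.8% and 4.97% from type VI. Endothelial-like cells turned the order around, with 55.9% and 55.4% basement-membrane, 24.9% and 19.5% multiplexin and 7.32% and 11.7% fibrillar UMIs. Macrophage-like cells carried 28.0% and 25.7% FACIT UMIs, against 2.21% and 2.33% in tumour-like cells.

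**Figure D2:**
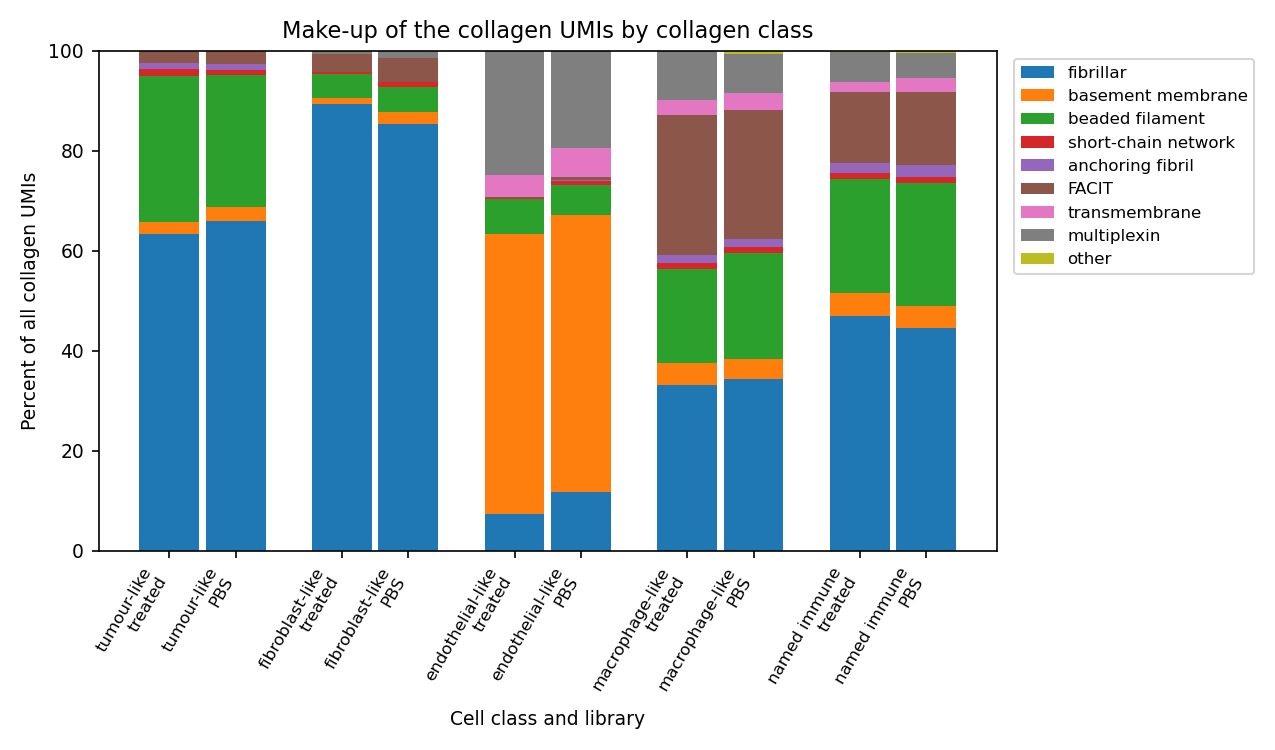
Percent of all collagen UMIs from each collagen class (stacked bars, summing to 100) in 5 groups of cells, treated and PBS beside each other. Fibrillar chains reach 89.4% in treated fibroblast-like cells, and basement-membrane chains take 55.9% and 55.4% in endothelial-like cells.

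Among fibrillar chains, tumour-like cells were dominated by Col3a1 (chromosome 1, 45311538 to 45349706, plus strand; all positions are GENCODE M21 on GRCm38), the single chain of type III collagen. It stood at 1416 CPM (1408 to 1425) in treated and 1658 CPM (1650 to 1666) in PBS tumour-like cells, 47.9% and 51.9% of their collagen UMIs. Col1a1 (chromosome 11, 94936224 to 94953042, plus strand) and Col1a2 (chromosome 6, 4504814 to 4541544, plus strand) encode the α1 and α2 chains of type I collagen, which join in a fixed proportion in the common heterotrimer. In tumour-like cells Col1a1 stood at 188 and 171 CPM and Col1a2 at 35.4 and 26.8 CPM, so that Col1a1 UMIs outnumbered those of Col1a2 5.32 times (5.10 to 5.54) in the treated and 6.38 times (6.13 to 6.64) in the PBS library. In fibroblast-like cells the same ratio was 1.76 (1.68 to 1.85) and 1.57 (1.46 to 1.69). The ratio of Col3a1 to Col1a1 also differed between the classes, at 7.54 and 9.68 in tumour-like against 0.922 and 0.693 in fibroblast-like cells. These intervals do not overlap between the classes in either library. Of the type V chains, Col5a1 and Col5a2, which regulate fibril diameter, were close in tumour-like cells (Col5a1 over Col5a2 1.21 and 1.11), while Col5a2 led in fibroblast-like cells (0.227 and 0.293). Col5a3 stood at 32.7 and 38.8 CPM and Col27a1 at 16.5 and 14.9 CPM in tumour-like cells.

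Type VI chains came next in tumour-like cells. Col6a3 (chromosome 1, 90765923 to 90843971, minus strand), the large chain whose cleaved end is known as endotrophin, stood at 405 and 344 CPM. Col6a1 (chromosome 10, 76708792 to 76726168, minus strand) stood at 352 and 370 CPM and Col6a2 beside it on chromosome 10 at 107 and 125 CPM. Outside the fibrillar and type VI chains, each member was below 100 CPM in tumour-like cells. Col16a1, a FACIT chain, stood at 58.2 and 68.2 CPM. Col8a1, a short-chain network collagen of vessel walls, stood at 38.8 and 36.3 CPM, and Col7a1, the anchoring fibril of skin, at 36.3 and 36.7 CPM. Low-UMI tumour-like cells (438 and 577 cells, median 1937 and 3042 UMIs) had a similar total of 3210 and 3639 CPM. They held more Col7a1, at 170 and 154 CPM.

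The 4 tumour-like clusters differed from each other more than the treated from the PBS library. Cluster 1, led by the matrix genes Cilp, Tnc and Postn, carried 5808 and 5939 CPM of collagen. Cluster 2 carried 2121 and 2158 CPM, cluster 4, led by histone and mitotic genes, 2301 and 2441 CPM, and cluster 12 1685 and 1664 CPM. In cluster 1 Col3a1 stood at 3183 and 3503 CPM, against 654 to 1159 CPM in the other 3 clusters. Col1a1 followed the same order, at 486 and 373 CPM in cluster 1 and 61.1 to 122 CPM elsewhere. Col1a2 did not: it stood at 30.8 and 25.1 CPM in cluster 1 and at 18.9 to 43.8 CPM in the others, so that the Col1a1 to Col1a2 ratio of cluster 1 reached 15.8 (14.4 to 17.2) and 14.9 (13.8 to 16.1). Col8a1 ran the other way, with 16.9 and 14.7 CPM in cluster 1 and 40.3 to 56.3 CPM elsewhere. Across single tumour-like cells (2514 treated, 2962 PBS) Spearman's rho with Col3a1 was highest for Col6a1 (0.67 and 0.69) and Col6a2 (0.55 and 0.62). It was near 0 for Col1a2 (-0.01 and -0.09) and lowest for Col8a1 (-0.26 and -0.34). These correlations only describe cells that share a library and a per-cell scaling.

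**Figure D3:**
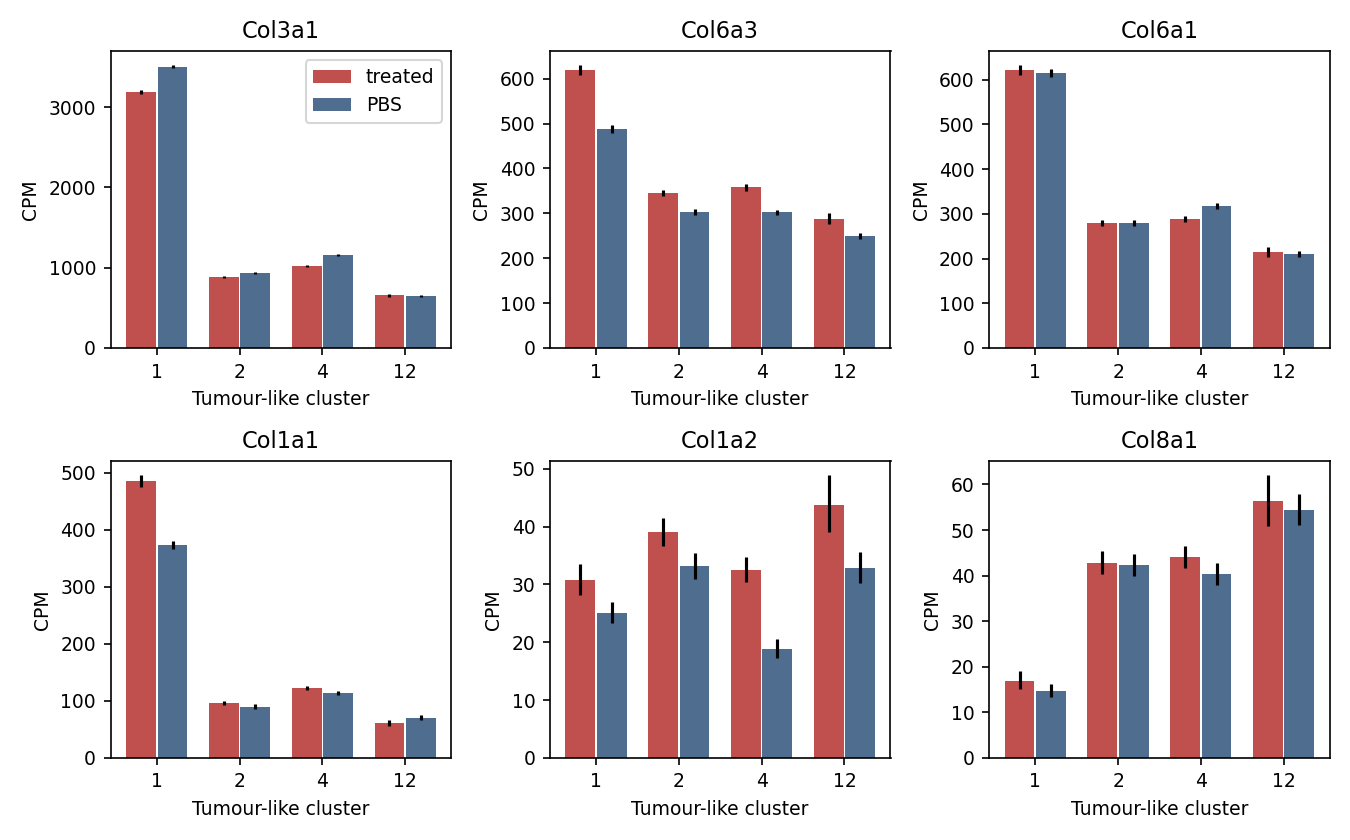
CPM of 6 collagen genes in the 4 tumour-like clusters (bars from 0; error bars are exact 95% Poisson intervals; treated red, PBS blue). Col3a1, Col6a1, Col6a3 and Col1a1 are highest in cluster 1 and Col8a1 is lowest there, while Col6a3 and Col1a2 are higher in the treated library in each of the 4 clusters.

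In the whole tumour the collagens were on balance slightly lower in the treated library. The total differed by a log2 ratio of -0.17, the median of the 33 measured members was -0.16, and the median of all 15629 measured genes was 0.01. Members at least 1.5-fold apart were counted as higher or lower. There were 5 higher members, where 8.5% of all genes were higher, and 3 lower members, where 4.89% of all genes were lower. The library composition moved with these values, since named immune cells made up more of the treated library. With cell classes weighted alike in both libraries the total differed by -0.06.

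The 5 higher members came from different cells. Col1a2 stood at 55.8 CPM in the treated and 33.9 CPM in the PBS library (log2 0.72, 0.66 to 0.77), and 45.6% of its treated and 26.7% of its PBS UMIs came from the fibroblast-like cells. Col12a1, a FACIT chain of stretched tissue, stood at 4.32 and 2.45 CPM (log2 0.82), with 53.1% and 22.9% of its UMIs from those cells. Without the 61 fibroblast-like cells neither call held: Col1a2 differed by 0.29 and Col12a1 by 0.11. Col15a1, a multiplexin of vessel basement membranes, stood at 4.46 and 2.62 CPM (log2 0.77), and with cell classes weighted alike it differed by 0.00. Col24a1, a fibrillar chain of developing bone, had 133 treated and 74 PBS UMIs (log2 1.15, 0.73 to 1.58) and Col4a6 38 and 22 UMIs (log2 1.09, 0.30 to 1.92). Without doublet removal the call for Col4a6 ended at 0.45. The 3 lower members were Col4a1 (12.1 and 19.6 CPM, log2 -0.70, -0.80 to -0.60), the transmembrane chain gene Col25a1 with 22 and 49 UMIs (log2 -0.85) and Col28a1 with 20 and 39 UMIs (log2 -0.66, -1.51 to 0.15). With cell classes weighted alike Col25a1 differed by -0.18, and Col28a1 ranged from -2.62 with equal weight of cells to -0.53 without doublet removal, where its call ended. Col3a1, the most abundant member, stood at 1174 and 1442 CPM (log2 -0.30). Col6a3 and Col1a1 were 0.12 and 0.23 higher in sums of UMIs, and both turned to lower values when each cell had the same weight (-0.30 and -0.17).

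Within tumour-like cells the collagens of both libraries were close. The total differed by -0.11, the median of 27 measured members by -0.05, and that of 14168 genes by -0.0012. Only 1 member was higher, where 4.26% of genes were, and 3 were lower, where 4.96% were. The higher member was Col24a1, with 91 treated and 52 PBS UMIs (1.16 and 0.506 CPM, log2 1.20, 0.69 to 1.72). The lower members were Col4a1 (12.99 and 19.58 CPM, log2 -0.59, -0.70 to -0.48), Col20a1, a FACIT chain with 29 and 67 UMIs (log2 -0.82), and the transmembrane chain gene Col23a1 with 94 and 202 UMIs (log2 -0.71). Clusters 1 and 12 were smaller in the treated library (27.2% against 36.3% and 9.90% against 16.3% of tumour-like cells), and clusters 2 and 4 larger. With the clusters weighted alike the total differed by -0.04, and Col23a1 (-0.50) and Col4a1 (-0.57) lay just inside 1.5-fold. Within the clusters, Col6a3 was higher in the treated library by 0.34, 0.19, 0.24 and 0.21 in clusters 1, 2, 4 and 12, and Col1a2 by 0.29, 0.24, 0.78 and 0.41, past 1.5-fold in cluster 4 alone. Col3a1 differed by -0.14, -0.09, -0.18 and 0.01 in the same clusters, and Col1a1 by 0.38, 0.09, 0.11 and -0.20.

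In fibroblast-like cells most measured collagens were higher in the treated library. All collagen together was 1.76-fold higher in the treated cells (log2 0.82, 0.77 to 0.86). Of 16 measured members 9 were higher, where 20.7% of 1846 genes were, and 2 were lower, where 11.6% were. The median of the 16 was 0.62, and that of all measured genes 0.06. The fibrillar chains led: Col1a1 stood at 15038 and 8671 CPM (log2 0.79, 0.71 to 0.87), Col3a1 at 13862 and 6010 CPM (1.21, 1.11 to 1.30), Col1a2 at 8539 and 5529 CPM (0.63) and Col5a2 at 2334 and 1184 CPM (0.98). Col5a1 (log2 0.61), the type VI chains Col6a1, Col6a2 and Col6a3 (0.96, 0.95 and 0.62) and Col12a1 (1.17) were also higher. The FACIT chain Col14a1 was level, at 732 and 731 CPM. The lower members were Col4a1, with 15 and 40 UMIs (log2 -1.97), and Col16a1 (log2 -0.70, -1.49 to 0.08).

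The fibroblast-like values rest on few cells. The 3 richest cells held 41.1% of the collagen UMIs of the 34 treated cells and 50.7% of those of the 27 PBS cells. The median cell carried 276 collagen UMIs per 10000 in the treated and 135 in the PBS library, and the quartiles lay at 151 and 692 and at 42.0 and 346, so the ranges overlapped. The markers of the cluster moved too: the fibroblast list summed to 8189 and 6727 CPM and the pericyte list to 2625 and 3513 CPM. The part of this shift in the collagen values was not tested beyond the split that follows. Cells with more pericyte-list than fibroblast-list UMIs (pericyte-led) numbered 14 treated and 13 PBS; this split was added after seeing the data and leaves subsets under 20 cells. Among the other 20 and 14 cells all collagen stood at 52308 and 31824 CPM (log2 0.72), and among the pericyte-led cells at 29013 and 9961 CPM (log2 1.54). The treated level was higher in both subsets for Col1a1 (log2 0.60 and 2.12) and Col3a1 (1.16 and 2.28). Among the other cells Col1a2 (0.46) and Col5a1 (0.25) lay inside 1.5-fold, and Col15a1 went from -0.58 to -1.86.

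**Figure D4:**
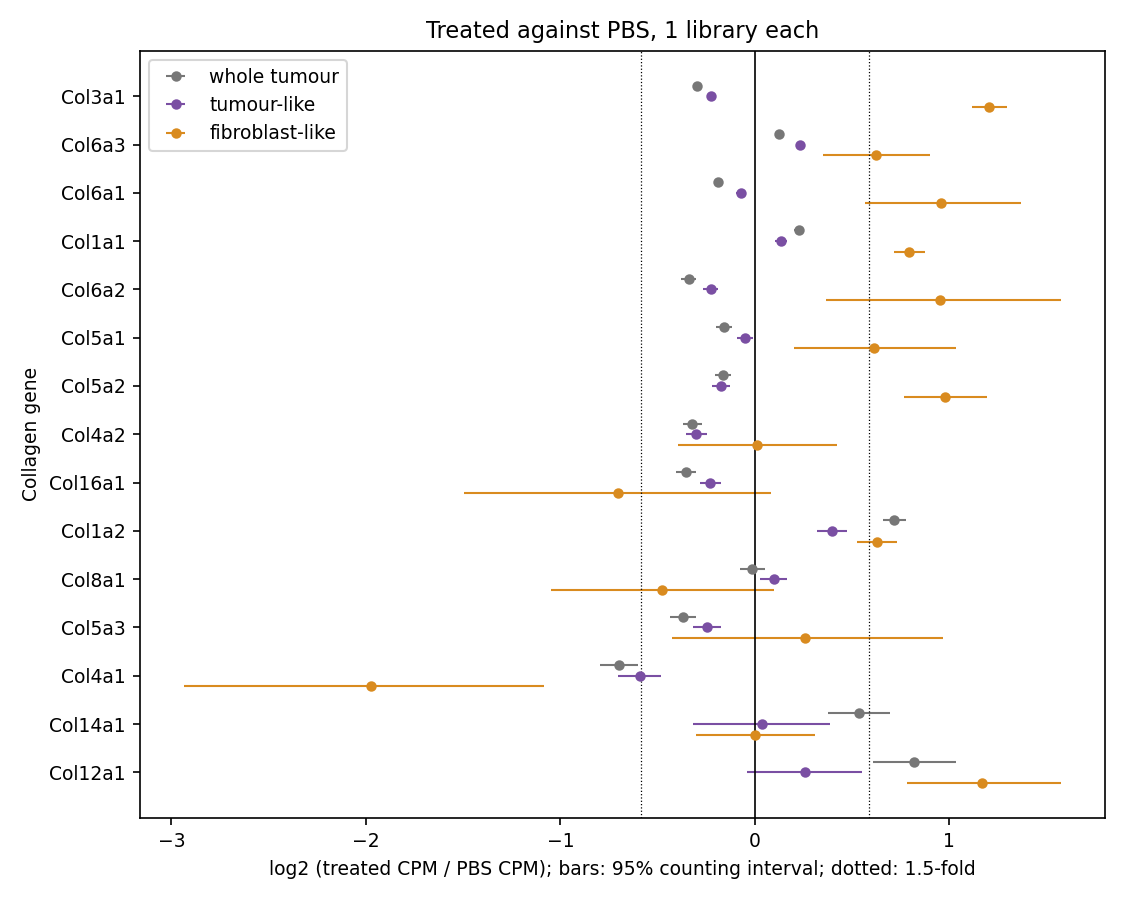
log2 ratio of treated over PBS CPM for 15 collagen genes in the whole tumour (grey), tumour-like cells (purple) and fibroblast-like cells (orange); bars are 95% counting intervals and dotted lines mark 1.5-fold. Fibroblast-like points lie to the right of the others for most fibrillar and type VI chains, and Col4a1 lies left of 0 in each group.

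Endothelial-like cells (24 treated, 18 PBS) fell under the minimum of 20 cells per library, so their values are given side by side with no ratio. Col4a2 stood at 1547 CPM (1393 to 1714) and 1612 CPM (1434 to 1806). Col15a1 stood at 656 and 649 CPM and Col18a1, the multiplexin whose end fragment is endostatin, at 130 and 81.1 CPM. Col3a1 stood at 139 and 168 CPM, far below its tumour-like level.

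Col4a1 and Col4a2, the basement-membrane pair that joins as 2 α1 chains and 1 α2 chain, were followed across classes. The genes lie head to head on chromosome 8, Col4a1 at 11198423 to 11312826 on the minus strand and Col4a2 at 11312805 to 11449287 on the plus strand, so that their annotated starts overlap by 22 bases. Their RefSeq promoter windows (250 bases before to 50 after the start, GRCm38.p6) are shown because they share sequence and yet the genes differed in level and in ratio. The windows are chr8:11312777-11313076 on the minus strand and chr8:11312555-11312854 on the plus strand, and capitals mark the 78 bases present in both, read on opposite strands.
Col4a1: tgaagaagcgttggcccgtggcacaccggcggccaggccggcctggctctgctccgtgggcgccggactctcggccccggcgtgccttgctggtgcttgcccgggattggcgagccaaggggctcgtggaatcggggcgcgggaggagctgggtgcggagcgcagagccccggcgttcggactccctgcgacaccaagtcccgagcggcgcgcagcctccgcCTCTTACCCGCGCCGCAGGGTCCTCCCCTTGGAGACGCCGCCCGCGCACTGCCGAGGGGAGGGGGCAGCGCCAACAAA
Col4a2: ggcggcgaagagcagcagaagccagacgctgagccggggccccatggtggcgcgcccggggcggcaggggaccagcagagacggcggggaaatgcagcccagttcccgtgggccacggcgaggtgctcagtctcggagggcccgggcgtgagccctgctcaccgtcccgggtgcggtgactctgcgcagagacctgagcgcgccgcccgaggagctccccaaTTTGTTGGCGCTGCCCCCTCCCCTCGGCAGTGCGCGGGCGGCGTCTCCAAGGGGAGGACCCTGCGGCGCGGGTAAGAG
The GC content of the windows was 74% and 73.7%. Each held 1 CCAAT box (CCAAT or ATTGG), which 37.4% of 32851 promoter windows hold, and neither held TATAAA on either strand, which 13.6% hold. These matches describe the letters and show no binding.

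Col4a2 had more UMIs than Col4a1 in each class drawn in the plot of the pair. Its UMIs outnumbered those of Col4a1 4.38 times (4.09 to 4.69) in treated and 3.58 times (3.40 to 3.76) in PBS tumour-like cells, and 7.08 times (5.28 to 9.65) and 3.51 times (2.75 to 4.52) in endothelial-like cells. Low-UMI tumour-like cells had a ratio nearer 1, at 1.40 (1.013 to 1.94) and 1.18 (0.961 to 1.44). Col4a1 was lower in the treated library in clusters 1, 2, 4 and 12, by log2 values of -0.57, -0.48, -0.65 and -0.62. It was also lower in fibroblast-like cells and stood at 219 and 460 CPM in endothelial-like cells. Col4a2 differed less, by -0.11, -0.37, -0.50 and 0.01 in the 4 clusters and 0.01 in fibroblast-like cells. The last 500 annotated bases of Col4a1 are overlapped by Gm15418 on the other strand. The sources used here do not say whether the counting used strand, and without it the UMIs of these 2 genes cannot be told apart. The same limit holds for Col18a1 (overlapped by Slc19a1), Col9a3 (Tcfl5), Col4a3 (C430014B12Rik) and Col10a1 (Nt5dc1).

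**Figure D5:**
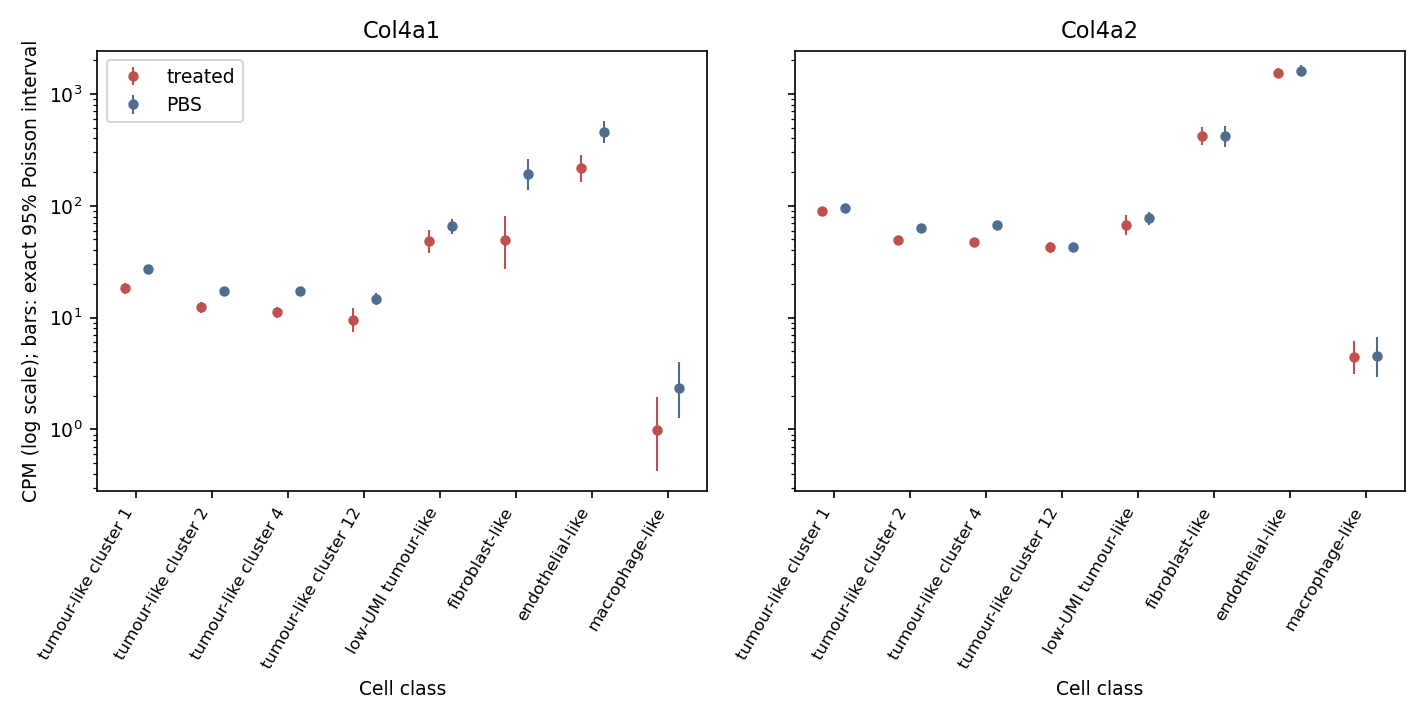
CPM (log axis) of Col4a1 and Col4a2 in 8 cell classes, treated red and PBS blue, with exact 95% Poisson intervals. Col4a1 is lower in the treated library in tumour-like, fibroblast-like and endothelial-like cells and rests on 8 treated and 13 PBS UMIs in macrophage-like cells, while the Col4a2 points of both libraries lie close together in fibroblast-like and endothelial-like cells.

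Free RNA in droplets gives some UMIs in cells that do not express a gene, so immune values are given beside those of B-cell-like cells. Cells with at least 1000 UMIs were thinned to 1000 UMIs, and cells with fewer were left out of every thinned share. The thinned shares therefore describe the deeper cells of each class. Among them, 14.99% of treated and 19.6% of PBS named immune cells had a collagen UMI (36.2% and 51.8% of all, unthinned, median depths 1972 and 3641 UMIs). The share was 14.5% and 25.3% in B-cell-like cells, which are not known to make collagen (median depths 1155 and 1483 UMIs). It was 15.6% and 18.5% in T- and NK-like cells and 14.3% and 18.97% in macrophage-like cells. Tumour-like cells reached 85.7% and 85.9%. Col3a1 was present in 3.17% and 4.98% of thinned macrophage-like cells and in 5.01% and 12.2% of B-cell-like cells (median depths 9222 and 7386 against 1155 and 1483 UMIs). Per class this was 262 and 260 UMIs in 821 and 644 macrophage-like cells and 102 and 68 UMIs in 1200 and 365 B-cell-like cells. How much of it is free RNA was not tested. Over all named immune cells 20 members were measured, of which Col1a2 (log2 0.79) was higher and Col4a1 (-0.63, -1.48 to 0.22) lower, where 3.76% and 5.74% of genes were.

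A pair of chains stood higher in macrophage-like than in B-cell-like or T- and NK-like cells. Col14a1, a FACIT chain that binds fibril surfaces, stood at 41.1 CPM (36.8 to 45.8) in treated and 45.0 CPM (39.6 to 51.0) in PBS macrophage-like cells. It stood at 1.22 and 1.18 CPM in T- and NK-like cells, at 1.55 and 1.18 CPM in monocyte-like cells, and had 0 and 2 UMIs in B-cell-like cells. In cells thinned to 1000 UMIs, 3.05% and 4.04% of macrophage-like cells had a Col14a1 UMI (17.7% and 17.1% unthinned, median depths 9222 and 7386 UMIs), against 0% and 0.329% of B-cell-like cells (median depths 1155 and 1483 UMIs). Macrophage-like cells thus held about as many Col14a1 as Col3a1 UMIs (332 and 262 treated, 248 and 260 PBS), whereas tumour-like cells held 121 and 111006 treated and fibroblast-like cells 224 and 4240. Col15a1 stood at 16.7 and 15.6 CPM in macrophage-like and 11.9 and 11.0 CPM in monocyte-like cells, against 0.268 and 0.0875 CPM in tumour-like cells and 0 UMIs in B-cell-like cells of both libraries. Between the libraries Col14a1 (log2 -0.13, -0.37 to 0.11) and Col15a1 (0.10, -0.30 to 0.51) of macrophage-like cells differed by less than their counting intervals.

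Mature-dendritic-like cells (45 and 22) carried 362 treated and 20 PBS collagen UMIs. In the treated library 21 of the 45 cells had none, and 3 cells held 50% of the total. The richest cell had 77 collagen UMIs and also 29 of the 115 tumour-marker UMIs found in these cells. The part of mixed droplets in this value was not tested.

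Genes that act on collagen were read in lists by role. Of 20 chain-modifying and folding genes all 20 were measured in the whole tumour, with 2 higher and 0 lower, near the 8.5% and 4.89% of all genes, and a median log2 of -0.17. Colgalt2 (0.65) and P4ha3 (0.60) were the higher ones, both below 1 CPM, and both turned to -0.23 and -0.67 after thinning. P4ha2, a prolyl hydroxylase subunit, differed by -0.54 and Creb3l1, a regulator of secretory load, by -0.49. In tumour-like cells the 18 measured genes of this group had a median of -0.14, with Creb3l1 lower (19 and 52 UMIs, -1.06). Of 9 export and propeptide-cleavage genes Tll1, a tolloid protease, was lower (60 and 191 UMIs, -1.37), while Adamts14 (-0.46), Pcolce (-0.40) and Adamts3 (0.39) stayed within 1.5-fold. Among crosslinking and fibril-binding genes Lox, which crosslinks collagen and elastin, was higher (189 and 91 UMIs, 1.36). Of these, 170 and 76 UMIs lay in the fibroblast-like cells, where Lox stood at 556 and 366 CPM. Dcn differed by -0.34, Loxl2 by 0.31 and Lum by 0.30.

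Of the receptors, Itga10, an integrin chain that binds collagen, was lower (-0.77), and Lair1, an inhibitory collagen receptor of leukocytes, was higher (38.8 and 24.6 CPM, 0.66). With each cell weighted alike Lair1 differed by -0.05. Within tumour-like cells it was also higher (164 and 123 UMIs, 2.09 and 1.20 CPM, log2 0.81, 0.46 to 1.16). In the same tumour-like cells Ptprc, a general leukocyte marker, stood at 14.8 and 6.07 CPM. The part of leukocyte RNA in the tumour-like Lair1 value was not tested. Named immune cells were more frequent in the treated library, and their part in the Lair1 value was not tested. Ddr1 differed by -0.47 and Mrc2 by -0.38. In the breakdown group 3 of 10 measured genes were higher and 0 lower, where 8.5% and 4.89% of all genes were. Mmp13, a collagenase of fibrillar collagen, had 587 and 174 UMIs (5.72 and 1.37 CPM, 2.06), Mmp8, the collagenase of neutrophils, 111 and 35 UMIs (1.97), and Ctsk, a collagen-degrading cathepsin, 156 and 111 UMIs (0.80). Of the Ctsk UMIs, 94 and 30 lay in the fibroblast-like cells, and in tumour-like cells Ctsk had 26 and 35 UMIs (-0.04). Mmp3 differed by 0.52. Of the TGF-beta genes Tgfb2 was higher (20.02 and 13.13 CPM, 0.61), with 24.0 and 14.9 CPM in tumour-like cells (0.69), while Tgfbr2 (0.28) and Tgfbr1 (0.24) were not past 1.5-fold.

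In fibroblast-like cells the breakdown genes were high in the same library as the fibrillar chains. There, 5 of 6 measured breakdown genes were higher and 0 lower, where 20.7% and 11.6% of all 1846 genes were, with Mmp13 at 320 and 81.8 CPM (log2 1.97), the inhibitor gene Timp2 at 556 and 217 CPM (1.36), Ctsk at 307 and 144 CPM (1.09) and Mmp2 at 255 and 120 CPM (1.08). The TGF-beta receptor genes Tgfbr2 (1.04) and Tgfbr1 (0.85) were higher as well. Of 7 measured crosslinking and fibril-binding genes 3 were higher and 1 lower. These were Loxl1 (0.81), Loxl2 (38 and 16 UMIs, 0.69, -0.19 to 1.63) and Lox (0.60), and Lum (-0.72). The chain-modifying genes did not share this: of 4 measured none passed 1.5-fold and the median was -0.23, with Serpinh1, the collagen chaperone, at 883 and 1107 CPM. Of the export group Pcolce, the enhancer of propeptide cleavage, was lower at 203 and 337 CPM (-0.73).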

How the data were processed

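Per the labels' protocols, single-cell suspensions of the tumours went through a MobiDrop 3′ kit and were sequenced on an Illumina instrument. The submitters' processing notes name STAR and mm10, without versions, a counting program or an annotation. What the authors deposited holds raw UMI counts, 1 whole number for each gene in each barcode, and no barcode under 500 UMIs.

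Barcodes were dropped under 200 genes or over 20% mitochondrial UMIs, and those with the highest Scrublet scores were removed at 0.8% per 1000 barcodes (694 treated, 569 PBS). Both libraries were clustered together by Leiden in scanpy 1.11.5 (2000 variable genes without collagens, 30 components, 15 neighbours, resolution 1). Clusters were named from marker lists by a rule set after the clusters were seen. UMIs were summed per class and library and expressed as CPM. A gene was read with at least 50 UMIs over both libraries and counted as higher or lower from 1.5-fold. Intervals are exact 95% Poisson, conditional binomial or Clopper-Pearson intervals (scipy 1.17.1) and cover counting error only. No p-value was computed. Fibroblast-like counts of 1846 genes were simulated with Poisson error alone, the model behind the intervals. A true 2-fold difference was held by 95% of the intervals of 100 genes, and a true 1.5-fold difference by 91% of those of another 100. The simulation had no spread between cells or animals, so it cannot show how well the intervals cover such spread in the data.

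Values in full go to the 12 members with most UMIs and to members at least 1.5-fold apart, and of each related group to up to 4 genes with the largest ratio. Members, gene lists and markers were chosen with earlier results of these data known. Gene positions come from GENCODE M21, where 32235 of 32285 identifiers were found.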

Additional observations from a re-analysis of the deposited data

Results flagged for a closer look

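Each of 5 collagen genes lay in opposite directions in fibroblast-like and tumour-like cells, with both counting intervals clear of 0. The log2 ratio of treated over PBS in fibroblast-like cells was 1.21 for Col3a1, 0.98 for Col5a2, 0.61 for Col5a1, 0.95 for Col6a2 and 0.96 for Col6a1. In tumour-like cells it was -0.23, -0.17, -0.05, -0.23 and -0.07 in the same order. The tumour-like values also carry the mix of clusters: with clusters weighted alike Col6a1 differed by -0.027 and Col5a1 by -0.017. Within clusters 1, 2, 4 and 12 Col6a1 differed by 0.02, -0.00, -0.13 and 0.03 and Col5a1 by -0.10, 0.06, 0.05 and -0.06, so neither lay below 0 in all 4. The difference between the classes was not tested, since each class comes from the same 2 libraries.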

How the results depend on the processing

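No paired analysis was possible because each group has 1 library. The 3 alternatives added after seeing the data were leaving out fibroblast-like cells, weighting the tumour-like clusters alike and leaving out pericyte-led cells. For the whole tumour, the log2 ratio of total collagen was -0.16 with stricter cell filters, -0.19 without doublet removal, -0.53 with equal weight of cells, -0.46 after thinning to 1000 UMIs, -0.059 with classes standardised and -0.22 without fibroblast-like cells. The 5 higher members became 3, 2, 8, 3 and 3 with equal weight, thinning, a minimum of 10 UMIs, standardised classes and no fibroblast-like cells. The 3 lower members became 12, 6, 5 and 4 with equal weight, thinning, standardised classes and no fibroblast-like cells. In tumour-like cells the total was -0.10, -0.19, -0.18 and -0.040 with stricter filters, equal weight, thinning and clusters weighted alike. Higher members there numbered 2, 0, 8 and 2 with equal weight, thinning, 10 UMIs and clusters weighted alike, and lower members 1, 5 and 1 with thinning, 10 UMIs and clusters weighted alike. In fibroblast-like cells the total was 0.73, 1.13, 1.13, 0.74, 0.73 and 0.72 with stricter filters, equal weight, thinning, collagens kept in the clustering, resolution 0.5 and no pericyte-led cells, and thinning left 5 higher and 0 lower members. Thinning leaves fewer UMIs, so fewer genes reach the minimum. No share of all genes is given beside the counts in these alternatives. The counts therefore show how the calls depend on the processing and are not a result about collagens.

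Of the related genes in the whole tumour, 5 and 1 were higher and 15 and 13 lower with equal weight and thinning. In tumour-like cells 0 and 2 were higher and lower after thinning, and 5 higher with 10 UMIs. No share of all genes is given for these alternatives, so these counts are not a result about the related genes. P4ha3 (-0.67) and Colgalt2 (-0.23) turned after thinning and Lair1 (-0.050) with equal weight; the cause was not tested. Immune cells stood -3.30 and -3.27 from tumour-like cells without doublet removal, -3.95 and -3.79 with collagens kept in the clustering, and -3.89 in the PBS library with stricter filters. In PBS, fibroblast-like cells stood 3.09, 3.10 and 3.12 above tumour-like cells with collagens kept, resolution 0.5 and stricter filters. The Col3a1 share of tumour-like collagen was 48.7% and 52.9% with equal weight and 47.6% and 51.5% without doublet removal, and 19.5% in PBS fibroblast-like cells with equal weight. Unthinned, 99.9% and 99.8% of tumour-like and 36.2% and 51.8% of immune cells had a collagen UMI. With the libraries clustered separately the PBS fibroblasts fell into a pericyte-like cluster, so fibroblast-like cells gave no value there. No called member changed sign in the alternatives that gave it at least 10 UMIs (8 in the whole tumour, 4 in tumour-like and 11 in fibroblast-like cells), although Col15a1 in the whole tumour came to 0.00 with standardised classes.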
